A study of Mus musculus with 2 samples.

Results

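Interferon gamma is encoded by Ifng, and the genes described here are that cytokine, its receptor chains Ifngr1 and Ifngr2, and the genes for 2 cytokines that call for its release and for their receptors: Il12b, Il12rb1, Il12rb2, Il18 and Il18r1. They were taken by gene symbol, 8 of the 32285 genes counted, and each symbol matched 1 row. The set was chosen on the levels of these same genes per cell type and library, with their differences between treatments already known, so every difference below is a description and carries no test. Droplet single-cell RNA sequencing of transcript 3' ends was applied to whole CT26 tumours, in a series whose title ties PHGDH inhibition inside tumour cells to the epigenetic state of macrophages. PHGDH is the first enzyme of the serine synthesis pathway, and CT26 is a mouse colon carcinoma line of BALB/c origin.

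The WQ-2101 group was 5-week-old BALB/c mice carrying CT26 tumours under the skin, given 20 mg/kg of WQ-2101 into the peritoneum once a day from a tumour volume of about 100 mm³. The vehicle group was matched in strain, age, tumour line and schedule and received vehicle alone. The genotype label of both is wild type, both have the same batch label, and tumours were taken on day 17 after implantation. There was 1 library per group, the sources used here do not say how many mice stand behind each, and treatment and library cannot be told apart. Tumours were dissociated with enzymes without a recorded sort.

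The WQ-2101 library held 18142 barcodes and 185587327 unique molecular identifiers (UMIs, each standing for 1 captured transcript), and the vehicle library 14374 barcodes and 184754398 UMIs. After filtering, 17378 WQ-2101 cells (median 8058.5 UMIs) and 13667 vehicle cells (median 10736 UMIs) were left. A total of 62 barcodes occurred in both libraries. Cells were assigned to a type by gates, that is by minimum levels of marker genes within each cell. The T gate held 783 WQ-2101 and 665 vehicle cells, the NK gate 70 and 58, the macrophage gate 2891 and 2527, the dendritic gate 106 and 129, and the tumour gate 7223 and 5648. Cells in no gate made up 32.9% of WQ-2101 cells and 30.3% of vehicle cells. Median depth was lower in the WQ-2101 library in each of those 5 gates: 2556 against 3019 UMIs in T cells, 3509 against 6239 in NK cells, 6337 against 8138 in macrophages, 4585 against 7087 in dendritic cells and 13944 against 16987 in tumour cells. Levels are therefore given as UMIs per 1000000 UMIs of the gate (CPM), and shares of positive cells, which move with depth, also after thinning each cell to 1000 UMIs.

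The gates were set against their markers. The summed level of the 9 T markers was 4540 CPM in WQ-2101 and 4373 CPM in vehicle T cells, and 25.81 and 12.26 CPM in macrophages and 13.42 and 7.608 CPM in tumour cells. NK cells held 396.4 CPM of T markers in the WQ-2101 library and 503.3 CPM in the vehicle library, so that gate was not free of T marker transcripts. Macrophage markers summed to 341.6 CPM in WQ-2101 and 349.2 CPM in vehicle T cells, against 9079 and 9653 CPM in macrophages. The tumour gate rests on Hmga2 alone (1349 CPM in WQ-2101 and 1305 CPM in vehicle tumour cells). The epithelial markers Krt8, Krt18 and Epcam were each near 0 there, at 0.105 CPM or below in either library, and Cldn4 had no UMI, so the cells are tumour cells by Hmga2 and not by epithelial genes.

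Interferon gamma is secreted mainly by T and NK cells. It binds a receptor built from the IFNGR1 and IFNGR2 chains, which signals through the kinases JAK1 and JAK2 and switches on genes for antigen presentation, guanylate-binding proteins and the chemokines CXCL9 and CXCL10. Its release is promoted by interleukin 12, which dendritic cells and macrophages make as a pair of chains (IL12B with IL12A) and which is read through IL12RB1 and IL12RB2, and by interleukin 18, which is read through IL18R1 and IL18RAP. In tumours the cytokine is known both for supporting antigen presentation and for raising the inhibitory ligand CD274.

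In the GENCODE annotation of GRCm38 the 8 genes lie on 7 chromosomes, and all are protein coding. Ifng spans chr10:118441046-118445892 and Ifngr1 chr10:19591949-19610229, both on the plus strand. Ifngr2 spans chr16:91547072-91565623 and Il12b chr11:44400063-44414033, also on the plus strand. Il12rb1 lies at chr8:70808449-70821424, Il18 at chr9:50554827-50581840 and Il18r1 at chr1:40465552-40500854, all on the plus strand, and Il12rb2 at chr6:67291318-67376188 on the minus strand.

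Promoters are shown for the 2 cytokine genes with UMIs in few cells, Ifng and Il12b, and for the 2 chains of the interferon gamma receptor, because the first pair was found in few cells and the second widely. Each is the 250 bases before the RefSeq start site in GRCm38.p6, plus strand, 5′ to 3′, at chr10:118440796-118441045 for Ifng, chr11:44399813-44400062 for Il12b, chr10:19591699-19591948 for Ifngr1 and chr16:91546809-91547058 for Ifngr2. Capitals mark matches on either strand to 3 searched motifs: TATANA, as in the box bound by TBP, GGAAA, a core of sites for nuclear factors of activated T cells, and CCGCCC, the GC box bound by Sp1.
Ifng: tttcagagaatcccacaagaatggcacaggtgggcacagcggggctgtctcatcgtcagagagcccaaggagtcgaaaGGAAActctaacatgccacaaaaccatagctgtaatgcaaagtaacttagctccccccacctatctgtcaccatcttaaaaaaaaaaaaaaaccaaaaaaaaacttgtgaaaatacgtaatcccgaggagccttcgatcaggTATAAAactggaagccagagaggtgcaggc
Il12b: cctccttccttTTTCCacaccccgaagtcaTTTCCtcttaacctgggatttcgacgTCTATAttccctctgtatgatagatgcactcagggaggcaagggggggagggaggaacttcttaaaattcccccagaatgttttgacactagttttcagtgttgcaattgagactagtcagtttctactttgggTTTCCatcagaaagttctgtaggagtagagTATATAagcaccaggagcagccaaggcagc
Ifngr1: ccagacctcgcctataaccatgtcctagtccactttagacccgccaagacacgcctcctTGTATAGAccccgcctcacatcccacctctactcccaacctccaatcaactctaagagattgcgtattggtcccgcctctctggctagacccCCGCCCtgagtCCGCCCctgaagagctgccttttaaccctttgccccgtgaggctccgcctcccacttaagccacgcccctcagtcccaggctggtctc
Ifngr2: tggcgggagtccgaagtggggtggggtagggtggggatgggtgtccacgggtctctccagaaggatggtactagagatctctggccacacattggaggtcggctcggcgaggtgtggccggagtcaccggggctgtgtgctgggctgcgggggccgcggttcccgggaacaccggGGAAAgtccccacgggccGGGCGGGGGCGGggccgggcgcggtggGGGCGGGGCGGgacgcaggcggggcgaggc

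Ifng and Il12b each held TATANA on the plus strand at 30 to 25 bases before the start site. In Il12b that site also matched on the other strand, and a further TATANA on the minus strand lay 194 to 189 bases before the start. Ifngr1 had its TATANA matches only between 191 and 184 bases before the start, on both strands and overlapping each other, and it had CCGCCC at 99 to 94 and at 88 to 83 bases. Ifngr2 had no TATANA in its window but 4 CCGCCC matches, all on the minus strand, whose first bases lay 57, 51, 30 and 25 bases before the start, the last pair sharing a base. GGAAA occurred once in Ifng (172 bases before the start), 3 times in Il12b and once in Ifngr2. The share of GC bases in windows of 250 bases before to 50 after the start was 46.0% for Ifng, 48.0% for Il12b, 60.3% for Ifngr1 and 74.3% for Ifngr2, with a median of 52.7% over all 32851 promoters of that length. Of all promoters, 24.7% held TATANA, 61.3% GGAAA and 35.7% CCGCCC on either strand, so each match is common, and a match is a run of letters and not a known site. RefSeq entries matched 7 of the 8 genes, and Il12rb1 was the other one.

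**Figure D1:**
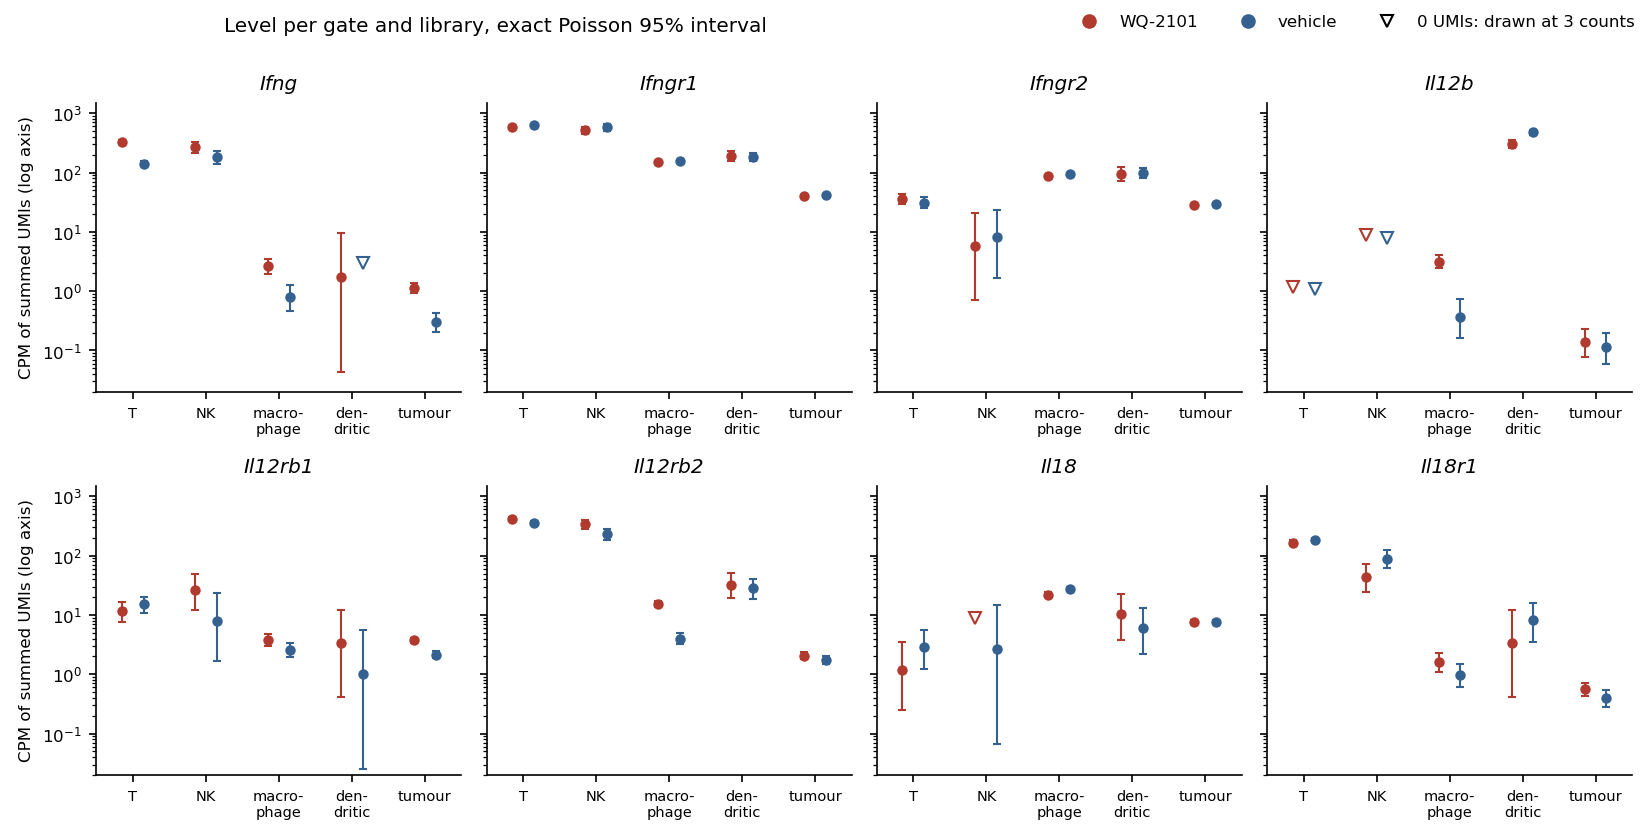
Level of each of the 8 genes (CPM, log axis) in T, NK, macrophage, dendritic and tumour gates, WQ-2101 left of vehicle, with exact 95% Poisson intervals for counting error and open triangles at 3 counts where no UMI was found. Ifng lies above 100 CPM in T and NK cells only, Il12b in dendritic cells only, and Ifngr1 above 40 CPM in each of the 5 gates.

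Which of these genes differed between the libraries was read as a log2 ratio of CPM plus 5, WQ-2101 over vehicle, with 1.5-fold as the limit and a mean of 5 CPM as the entry level. In T cells 1 of the 6 genes at that level was past the limit, Ifng, which was higher, where 2.01% of all genes were past it upwards and 2.61% downwards. In NK cells 1 of 6 was higher (Il12rb1) and 1 lower (Il18r1), where 18.1% of all genes were higher and 15.7% lower, so these counts are near the background of a gate with few cells. In macrophages 1 of 4 was higher (Il12rb2), where 2.71% of all genes were higher and 0.549% lower. In dendritic cells 2 of 6 were lower (Il12b and Il18r1), where 12.8% of all genes were higher and 9.71% lower. In tumour cells none of 3 was past the limit, where 0.809% of all genes were higher and 0.429% lower. The median log2 ratio of the genes at 5 CPM was 0.035 in T cells, 0.19 in NK cells, -0.054 in macrophages, 0.016 in dendritic cells and -0.04 in tumour cells. The same medians over all genes tested were -0.021, 0.041, 0.012, 0.012 and -0.013 in that order. Because the genes were chosen with these values in view, nothing is read from the counts.

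**Figure D2:**
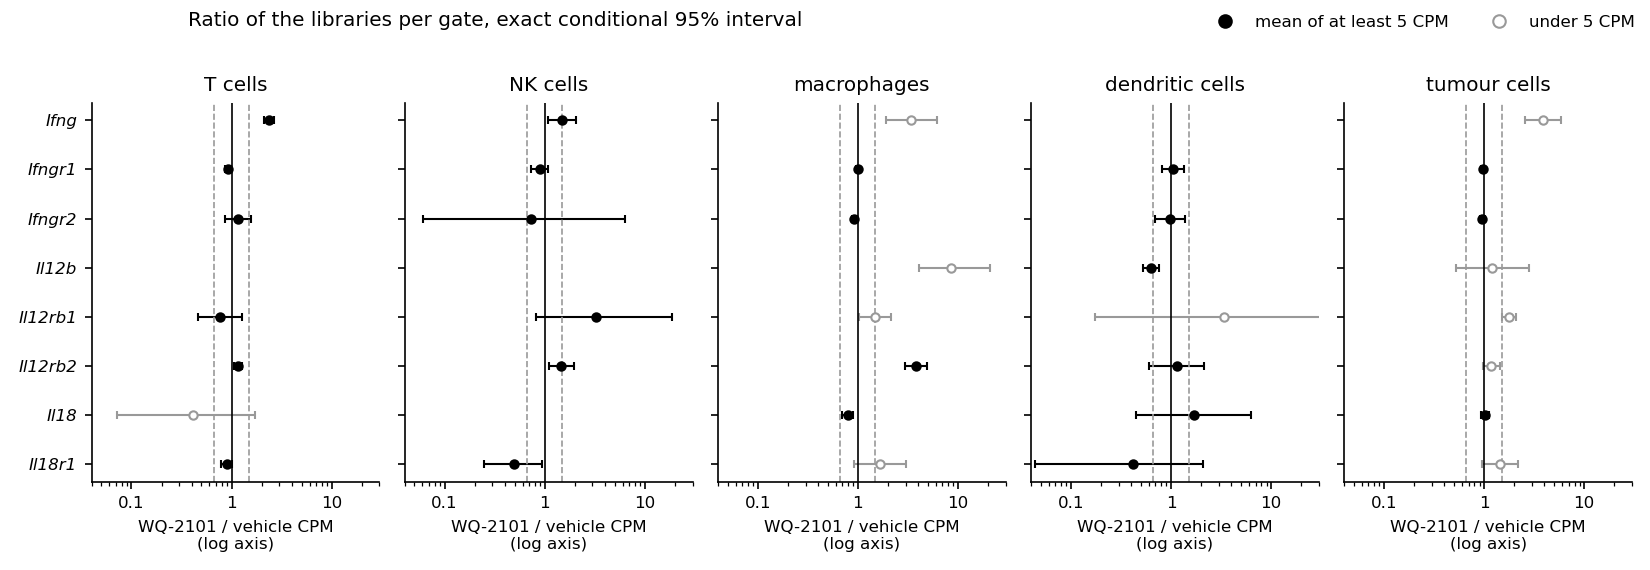
Ratio of WQ-2101 to vehicle CPM (log axis) for each gene and gate, with exact conditional 95% intervals for counting error. Filled points have a mean of at least 5 CPM, and dashed lines mark 1.5-fold either way. Ifng in T cells lies at 2.37 and Il12rb2 in macrophages at 3.8, and both receptor chains lie near 1 in macrophages and tumour cells.

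Ifng was the 1 gene of the set past 1.5-fold in T cells. WQ-2101 T cells held 839 Ifng UMIs, a level of 332.5 CPM (95% interval 310.4 to 355.8), against 392 UMIs and 140.4 CPM (126.9 to 155) in vehicle T cells. The ratio was 2.37 (2.10 to 2.68), and its log2 value with the added 5 CPM was 1.22. The intervals do not overlap, but they cover counting error within 1 library each and say nothing of how animals vary.

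The share of T cells with an Ifng UMI differed much less than the level. It was 30.27% (27.1 to 33.6) of WQ-2101 T cells and 27.22% (23.9 to 30.8) of vehicle T cells, and these intervals overlap. In tumour cells, which should lack the transcript, the shares were 1.30% in the WQ-2101 library and 0.390% in the vehicle library at a greater median depth. Thinned to 1000 UMIs, which left out 24 WQ-2101 and 19 vehicle T cells as too shallow, the expected shares were 17.81% and 12.51%. A positive T cell held 3.54 Ifng UMIs on average in the WQ-2101 library and 2.17 in the vehicle library. Its median level was 713.3 CPM in WQ-2101 and 397.8 CPM in vehicle positive cells.

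The difference in level lay in T cells with several Ifng UMIs. A single Ifng UMI was found in 11.5% of WQ-2101 and 14.7% of vehicle T cells. Between 2 and 4 UMIs were found in 13.8% and 9.92%, and between 5 and 9 in 3.45% and 2.11%. At least 10 UMIs were found in 12 WQ-2101 T cells (1.53%) and 3 vehicle T cells (0.451%). The single highest WQ-2101 cell held 96 Ifng UMIs and the next 36, 20 and 19, whereas the highest vehicle cells held 14, 13, 10 and 9. The 10 highest cells together carried 30.2% of the Ifng UMIs of WQ-2101 T cells and 23.0% of those of vehicle T cells. Without those 10 cells in each library the levels were 236.3 CPM in WQ-2101 and 109.8 CPM in vehicle T cells, a ratio of 2.15 (1.87 to 2.48).

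**Figure D3:**
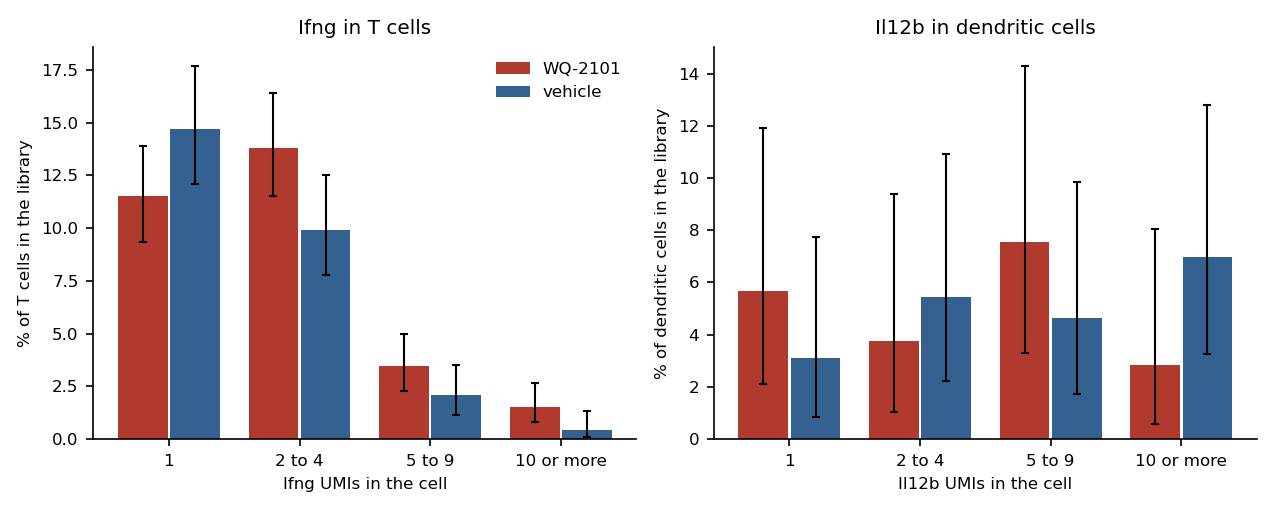
Share of cells (percent) by the number of UMIs of the gene in the cell, for Ifng in T cells (left) and Il12b in dendritic cells (right), WQ-2101 left of vehicle, bars with exact 95% binomial intervals. T cells with 1 Ifng UMI are a smaller share in WQ-2101 than in vehicle (11.5% against 14.7%) and those with more a larger one, and dendritic cells with 10 or more Il12b UMIs are 2.83% of WQ-2101 and 6.98% of vehicle cells.

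**Figure D4:**
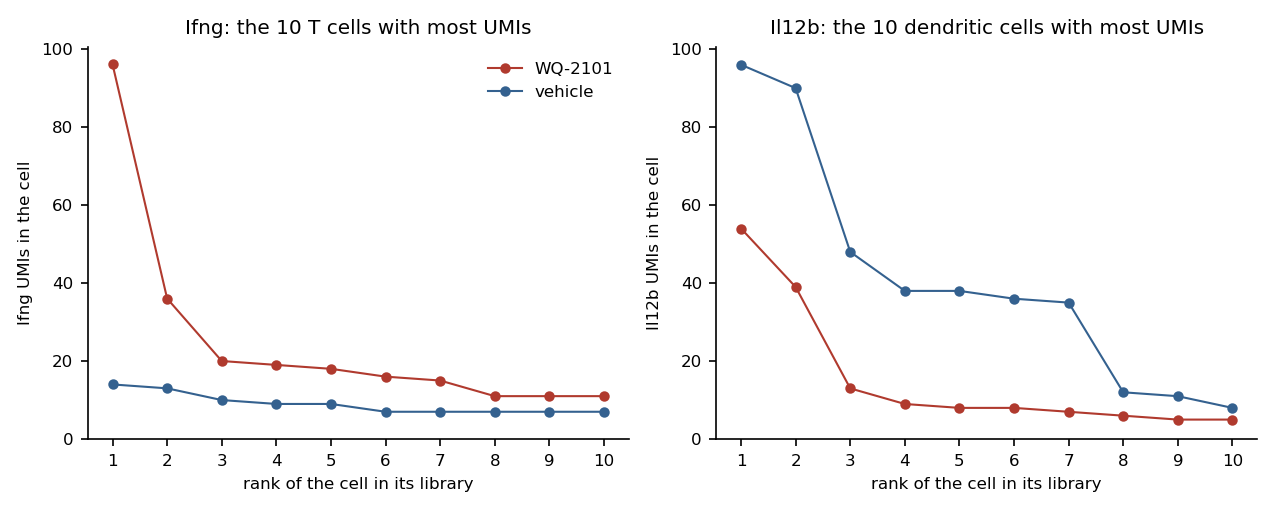
UMIs of the cytokine gene in each of the 10 highest cells of a gate, by rank within the library, for Ifng in T cells (left) and Il12b in dendritic cells (right). The highest Ifng cell has 96 UMIs in the WQ-2101 library and 14 in the vehicle library, and the highest Il12b cell 54 and 96.

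NK cells, the other classical source, held 91 Ifng UMIs and 265.2 CPM (213.5 to 325.6) in the WQ-2101 library, against 67 UMIs and 179.4 CPM (139 to 227.8) in the vehicle library. The ratio was 1.48 (1.07 to 2.06), with 41.43% of WQ-2101 and 32.76% of vehicle NK cells positive, and 23.1% and 15.27% after thinning. The 10 highest cells carried 71.4% of the UMIs in WQ-2101 and 86.6% in vehicle NK cells, so few cells set this level. Without them it was 83.38 CPM in WQ-2101 and 30.0 CPM in vehicle NK cells, a ratio of 2.78 (1.26 to 6.74). The level ranked T cells before NK cells in the WQ-2101 library and after them in the vehicle library, and the intervals of the pair overlapped in both.

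The remaining gates came far below. Macrophages held 2.643 CPM of Ifng in the WQ-2101 library and 0.7864 CPM in the vehicle library (ratio 3.36, 1.91 to 6.21), in 1.28% and 0.475% of cells. Tumour cells held 1.137 CPM in the WQ-2101 library and 0.2967 CPM in the vehicle library (ratio 3.83, 2.57 to 5.88). Dendritic cells held 1 Ifng UMI in the WQ-2101 library and none in the vehicle library, which is at or under the limit of 3 counts in both. Fibroblasts held 11 UMIs in 3 WQ-2101 cells and none in vehicle, and B cells, neutrophils, endothelial and mural cells held none in either. Of all Ifng UMIs, the T gate held 64.2% in WQ-2101 and 62.5% in vehicle, the NK gate 6.97% and 10.7%, the tumour gate 9.42% and 4.94%, and the ungated cells 10.2% and 12.9%. Over all cells the level was 7.449 CPM in the WQ-2101 library and 3.637 CPM in the vehicle library, a ratio of 2.05.

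T cell marker UMIs were counted beside these low levels. For each 100 UMIs of the 9 T markers, T cells held 7.32 Ifng UMIs in the WQ-2101 library (6.84 to 7.84) and 3.21 in the vehicle library (2.90 to 3.55). Tumour cells held 8.47 (7.04 to 10.1) in WQ-2101 and 3.90 (2.65 to 5.53) in vehicle, and macrophages 10.2 (7.63 to 13.5) and 6.42 (3.74 to 10.3). In tumour cells of each library Ifng thus stood in about the ratio to T cell markers that it had in the T cells of that library, with overlapping intervals. In macrophages it stood above that ratio in each library, by intervals that overlap in the WQ-2101 library only.

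Within the T gate, cells were split by the transcripts detected in them, a split that itself moves with depth. CD8 cells, the cytotoxic lineage, had an Ifng level of 373.3 CPM in 381 WQ-2101 cells and 146.3 CPM in 337 vehicle cells, a ratio of 2.55 (2.19 to 2.98). Their positive shares were 39.63% in WQ-2101 and 35.91% in vehicle. CD4 cells without Foxp3 had 377.9 CPM in 74 WQ-2101 cells and 215.9 CPM in 73 vehicle cells (ratio 1.75, 1.22 to 2.52), but their positive share was lower in WQ-2101 (21.62%) than in vehicle (31.51%). The level was thus higher in both lineages, while the shares went opposite ways, a difference that was not tested.

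Regulatory T cells, marked by Foxp3, held 3 Ifng UMIs in 35 WQ-2101 cells and 2 in 53 vehicle cells, too few for a fold. Gamma-delta T cells held 14 UMIs and 290.7 CPM in 19 WQ-2101 cells, against 6 UMIs and 50.1 CPM in 38 vehicle cells (ratio 5.8, 2.09 to 18.4). CD8 cells with at least 2 UMIs of the granzymes Gzmc to Gzmf, proteases of late effector cells, had 501.9 CPM in 53 WQ-2101 cells and 151.7 CPM in 42 vehicle cells, a ratio of 3.31 (2.26 to 4.97). This was the highest subset level in the WQ-2101 library, whereas in the vehicle library it lay below the CD4 level. Its interval overlapped that of CD4 cells in both libraries. Of these late granzyme CD8 cells, 62.26% in WQ-2101 and 40.48% in vehicle were positive. CD8 cells without those granzymes had 348.3 CPM in WQ-2101 and 145.4 CPM in vehicle, a ratio of 2.40 (2.02 to 2.84).

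With the T subsets set to the same shares in both libraries, the Ifng level was 326.6 CPM in WQ-2101 and 144.6 CPM in vehicle T cells, a ratio of 2.26, against 2.37 at their own shares.

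**Figure D5:**
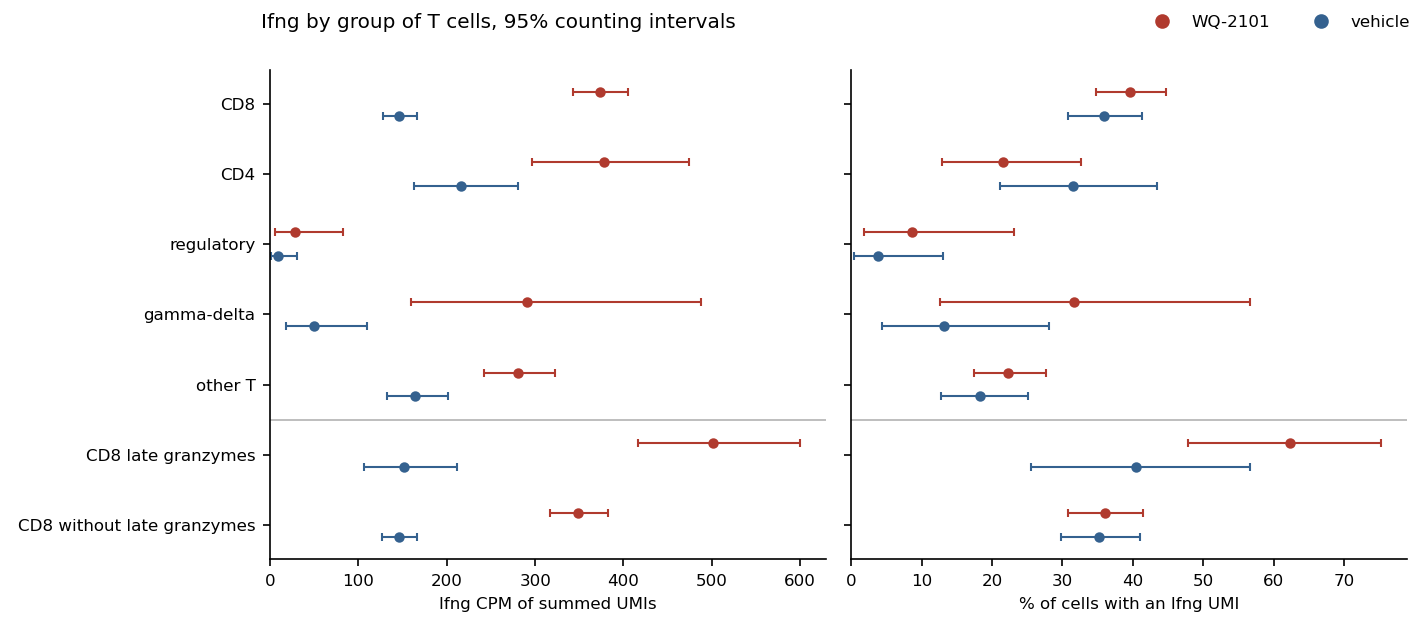
Ifng level (CPM, left) and share of cells with an Ifng UMI (percent, right) in subsets of the T gate, WQ-2101 above vehicle, with 95% counting intervals. The subsets above the grey line do not overlap, and those below it split CD8 cells again. Late granzyme CD8 cells have 501.9 CPM in WQ-2101 and 151.7 CPM in vehicle, and regulatory T cells rest on 3 and 2 UMIs.

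Ifng-positive T cells were set against Ifng-negative T cells of the same library, which splits cells by the gene itself and is a description only. Prf1, the pore-forming protein perforin, was 3.11 times as high in positive as in negative cells of the WQ-2101 library. In the vehicle library it was at 1.17 times, with an interval that includes 1 (0.892 to 1.52). The granzyme Gzmb was near even, at 1.14 in WQ-2101 and 0.942 in vehicle. Ccl3, a chemokine gene, was at 3.29 times in WQ-2101 and 0.998 in vehicle. Several other genes were higher in positive cells of both libraries. Ccl4 was at 2.18 times in WQ-2101 and 2.11 in vehicle, Tnf at 2.25 and 1.64, Cd69 at 1.5 and 1.53, and Tbx21 at 1.46 and 1.4. Of the inhibitory receptors of activated T cells, Pdcd1 was higher in positive cells, at 1.98 times in WQ-2101 and 1.39 in vehicle. Havcr2 was at 1.87 times (1.43 to 2.44) in WQ-2101 and 1.24 times (0.903 to 1.68) in vehicle. The transcription factor Tox went the other way in WQ-2101, at 0.609 (0.506 to 0.73), and was at 0.945 (0.792 to 1.12) in vehicle. Tcf7, the factor of naive and memory cells, was at 0.461 in WQ-2101 and 0.874 (0.556 to 1.34) in vehicle. The interleukin 12 receptor chain Il12rb2 was at 1.55 times (1.37 to 1.75) in WQ-2101 and 1.33 times (1.17 to 1.52) in vehicle. The receptor chain Ifngr2 went the other way, with 14.76 CPM in positive and 47.48 CPM in negative WQ-2101 T cells (ratio 0.311, 0.158 to 0.563). In vehicle it had 22.04 CPM in positive and 34.94 CPM in negative T cells (0.631, 0.353 to 1.07). Ifngr1 was close to even, at 1.10 in WQ-2101 and 0.907 in vehicle. Positive cells were also deeper than negative ones, with a median of 2913 against 2338.5 UMIs in the WQ-2101 library and 3351 against 2912.5 UMIs in the vehicle library.

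Il12b, the shared chain of interleukins 12 and 23, had its highest level in dendritic cells in both libraries. WQ-2101 dendritic cells held 176 UMIs and 299.8 CPM (257.1 to 347.5), against 469 UMIs and 473.6 CPM (431.7 to 518.5) in vehicle dendritic cells. The ratio was 0.633 (0.529 to 0.754). The summed level of the 8 markers that the gate uses was also lower, at 2867 CPM in WQ-2101 and 4231 CPM in vehicle dendritic cells. Among them Ccl17 had 1645 CPM in WQ-2101 and 2899 CPM in vehicle. Macrophage markers there summed to 633.6 CPM in WQ-2101 and 479.7 CPM in vehicle. For each 100 UMIs of the 8 dendritic markers there were 10.5 Il12b UMIs in WQ-2101 (8.97 to 12.1) and 11.2 in vehicle (10.2 to 12.3). The part of the gate's makeup in the Il12b ratio was not tested. The share of positive cells was nearly even, 19.81% in WQ-2101 and 20.16% in vehicle, and 11.59% and 12.72% after thinning. No T cell had an Il12b UMI, 0 of 783 in WQ-2101 and 0 of 665 in vehicle, which at 3 counts allows shares of cells with a UMI of up to 0.383% and 0.451%.

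A handful of cells carried the Il12b count. The highest WQ-2101 dendritic cells held 54, 39 and 13 UMIs, and the highest vehicle cells 96, 90, 48, 38, 38, 36 and 35. Cells with at least 10 UMIs were 3 of the WQ-2101 and 9 of the vehicle dendritic cells. The 10 highest cells carried 87.5% of the Il12b UMIs in WQ-2101 and 87.8% in vehicle, and without them the levels were 40.8 CPM in WQ-2101 and 62.58 CPM in vehicle (ratio 0.652, 0.38 to 1.08). Positive cells averaged 8.38 UMIs in WQ-2101 and 18.0 in vehicle. Scaled to each cell's depth, the median level of positive cells was nearly even, at 768.2 CPM in WQ-2101 and 780.5 CPM in vehicle.

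Mature migratory dendritic cells, which bear Ccr7 and Fscn1, had the highest Il12b level, 788.9 CPM in 39 WQ-2101 cells and 1779 CPM in 36 vehicle cells (ratio 0.443, 0.367 to 0.533). Cells with Xcr1 or Clec9a, the markers of type 1 dendritic cells, had no Il12b UMI in 12 WQ-2101 cells (up to 25% at 3 counts), against 55 UMIs in 5 of 19 vehicle cells. Cells with Cd209a or Mgl2, the markers of type 2 dendritic cells, had 13 UMIs in 3 of 38 WQ-2101 cells and none in 55 vehicle cells (up to 5.45%). These subsets hold few cells, and 1 strong cell can set any of the values.

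Macrophages held 61 Il12b UMIs (3.161 CPM) in the WQ-2101 library and 8 UMIs (0.3701 CPM) in the vehicle library, a ratio of 8.54 (4.07 to 20.7). These lay in 10 WQ-2101 and 3 vehicle cells, and a single WQ-2101 cell held 29 of them. For each 100 UMIs of the 8 dendritic markers, macrophages had 6.34 Il12b UMIs in WQ-2101 and 0.731 in vehicle, against 10.5 and 11.2 in dendritic cells. Whether dendritic cell RNA in those few cells takes part was not tested. The dendritic gate held 57.9% of all Il12b UMIs in the WQ-2101 library and 95.1% in the vehicle library. Cells left out for passing several gates held 12.8% in WQ-2101, on 39 UMIs in 3 cells, and 0.406% in vehicle, on 2 UMIs. Il12a, the chain that completes interleukin 12, was almost undetected, with 1 UMI in WQ-2101 and 3 UMIs in vehicle macrophages and 0 and 2 UMIs in dendritic cells.

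Il18, the gene of interleukin 18, was highest in macrophages, at 21.82 CPM (19.78 to 24.01) in WQ-2101 and 27.66 CPM (25.49 to 29.97) in vehicle. The ratio was 0.789 (0.695 to 0.895), short of 1.5-fold, with 12.73% of WQ-2101 and 18.84% of vehicle macrophages positive. Tumour cells held 7.691 CPM in WQ-2101 and 7.531 CPM in vehicle, a ratio of 1.02 (0.925 to 1.13). Dendritic cells had 6 UMIs in each library, T cells 3 in WQ-2101 and 8 in vehicle, and NK cells 0 and 1. Among the 5 gates macrophages came first in both libraries, but in WQ-2101 the dendritic interval (3.75 to 22.24) overlapped that of macrophages. Dendritic and tumour cells, next in line, had overlapping intervals. Outside the 5 gates, neutrophils had 15.3 CPM in WQ-2101 and 26.17 CPM in vehicle, on 2 and 7 UMIs. Because tumour cells were many and deep, they held 48.9% of all Il18 UMIs in the WQ-2101 library and 42.0% in the vehicle library.

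Il12rb2, the signalling chain of the interleukin 12 receptor, was highest in T and NK cells. T cells had 418.5 CPM (393.6 to 444.5) in WQ-2101 and 361.8 CPM (339.8 to 384.8) in vehicle, a ratio of 1.16 (1.06 to 1.26). Positive T cells made up 44.57% in WQ-2101 and 47.82% in vehicle, against 2.52% and 2.98% of the deeper tumour cells. NK cells had 338.1 CPM in WQ-2101 and 230.2 CPM in vehicle (ratio 1.47, 1.10 to 1.96), and dendritic cells 32.36 and 28.27 CPM. T and NK cells overlapped in their intervals in the WQ-2101 library only. By subset, late granzyme CD8 cells had 691.2 CPM in WQ-2101 and 472.4 CPM in vehicle. CD8 cells without late granzymes were even, at 423.4 CPM in WQ-2101 and 423.3 CPM in vehicle. T cells in no named subset were lower, at 300.9 CPM in WQ-2101 and 369.7 CPM in vehicle (ratio 0.814, 0.667 to 0.993). CD4 cells had 515.8 CPM in WQ-2101 and 339.2 CPM in vehicle. Regulatory T cells had 19 UMIs in WQ-2101 and 9 in vehicle, a ratio of 4.7 (2.02 to 11.8), and gamma-delta T cells 34 and 10 UMIs.

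Il12rb2 was also past the limit in macrophages, at 15.13 CPM in WQ-2101 and 3.978 CPM in vehicle, a ratio of 3.8 (2.98 to 4.9). Positive macrophages were 191 of 2891 (6.61%) in WQ-2101 and 67 of 2527 (2.65%) in vehicle. Tumour cells, which were deeper, had 2.061 CPM in WQ-2101 and 1.742 CPM in vehicle. After thinning, 1.265% of WQ-2101 and 0.398% of vehicle macrophages were expected to be positive, against 0.239% and 0.178% of tumour cells. T cell RNA moved with these cells. The 9 T markers summed to 91.2 CPM in Il12rb2-positive and 19.63 CPM in negative WQ-2101 macrophages, and to 68.37 and 10.42 CPM in vehicle macrophages. Icos, a T cell costimulatory receptor, was at 29.4 CPM in positive and 2.21 CPM in negative WQ-2101 macrophages. Dendritic markers, counted here with Zbtb46 and Cacnb3, were also higher in positive macrophages. They summed to 106.8 CPM in positive and 50.03 CPM in negative WQ-2101 macrophages, and to 80.01 and 52.51 CPM in vehicle macrophages. Macrophage markers were lower in positive cells, at 7229 against 9254 CPM in WQ-2101 and 7089 against 9737 CPM in vehicle.

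For each 100 T marker UMIs, macrophages held 58.6 Il12rb2 UMIs (52.1 to 65.8) in WQ-2101 and 32.5 (26.0 to 40.1) in vehicle, against 9.22 and 8.27 in T cells. With every macrophage left out that held a UMI of any of the 9 T markers, 243 in WQ-2101 and 177 in vehicle, the level was 12.3 CPM in WQ-2101 and 3.09 CPM in vehicle. The ratio was then 4.0 (2.99 to 5.4), and with 14 T cell genes in place of 9 it was 4.18 (3.11 to 5.7). That choice of cells was made after the values had been seen, and a cell with no such UMI can still hold T cell RNA. Macrophages with dendritic marker UMIs were not left out on that account. The part of T cell or dendritic cell RNA in the ratio was not tested.

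Il12rb1, the chain that interleukin 12 and interleukin 23 receptors share, had few UMIs. T cells had 11.49 CPM in WQ-2101 and 15.04 CPM in vehicle (ratio 0.764, 0.459 to 1.26), in 3.58% and 5.87% of cells. Tumour cells had 3.772 CPM in WQ-2101 and 2.134 CPM in vehicle (ratio 1.77, 1.5 to 2.09), in 5.12% and 3.68% of cells. After thinning, 1.456% of WQ-2101 and 1.5% of vehicle T cells were expected to be positive, against 0.368% and 0.226% of tumour cells. NK cells had 9 UMIs in WQ-2101 and 3 in vehicle (ratio 3.27, 0.815 to 18.8), and dendritic cells 2 and 1. Macrophages had 3.783 CPM in WQ-2101 and 2.544 CPM in vehicle (ratio 1.49, 1.03 to 2.15). The intervals of T and NK cells overlapped in both libraries, as did those of macrophages and tumour cells. Both interleukin 12 receptor chains were seen in the same cell in 1.53% of WQ-2101 and 2.56% of vehicle T cells.

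Il18r1, the ligand-binding chain for interleukin 18, was a T cell transcript first and an NK cell transcript second. T cells had 164.1 CPM (148.6 to 180.7) in WQ-2101 and 183.4 CPM (167.8 to 200) in vehicle, a ratio of 0.895 (0.784 to 1.02) whose interval includes 1. Positive T cells made up 31.16% in WQ-2101 and 40.0% in vehicle, and 14.81% and 17.64% after thinning, against 0.734% and 0.655% of tumour cells. NK cells had 15 UMIs and 43.72 CPM in WQ-2101, against 33 UMIs and 88.35 CPM in vehicle (ratio 0.495, 0.25 to 0.937). Dendritic cells had 2 UMIs in WQ-2101 and 8 in vehicle, and macrophages and tumour cells stayed at 1.607 CPM or below in both libraries. The partner chain Il18rap had 136.7 CPM in WQ-2101 and 121.1 CPM in vehicle T cells. Both interleukin 18 receptor chains were found in 12.9% of WQ-2101 and 17.7% of vehicle T cells.

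Ifngr1, the ligand-binding chain of the interferon gamma receptor, was detected in all 5 gates and was highest in T and NK cells. T cells had 578.6 CPM (549.3 to 609) in WQ-2101 and 626.5 CPM (597.4 to 656.5) in vehicle, a ratio of 0.924 (0.861 to 0.991). NK cells had 513.0 CPM in WQ-2101 and 575.6 CPM in vehicle (ratio 0.891). Dendritic cells had 190.8 CPM in WQ-2101 and 181.8 CPM in vehicle (ratio 1.05). Macrophages had 153.5 CPM in WQ-2101 and 153.7 CPM in vehicle, a ratio of 0.999 (0.95 to 1.05). Tumour cells had 40.27 CPM in WQ-2101 and 41.54 CPM in vehicle, a ratio of 0.969 (0.929 to 1.01). The order was T, NK, dendritic, macrophage and tumour cells in both libraries. In each library the intervals of T and NK cells overlapped, as did those of dendritic cells and macrophages.

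Shares of Ifngr1-positive cells were lower in the WQ-2101 library in each of those 5 gates, for example 71.01% against 82.41% in T cells, 54.48% against 64.78% in macrophages and 41.51% against 49.95% in tumour cells. At 1000 UMIs per cell the expected shares in tumour cells were 4.113% in WQ-2101 and 4.191% in vehicle, and in macrophages 13.7% and 14.44%. The gap between the libraries in tumour cells was thus nearly gone at equal depth. In T cells a gap was left, with expected shares of 42.93% in WQ-2101 and 48.69% in vehicle. NK cells had 45.12% in WQ-2101 and 48.56% in vehicle, and dendritic cells 16.99% and 16.02%. Among the smaller gates, fibroblasts had 72.87 CPM of Ifngr1 in WQ-2101 and 76.2 CPM in vehicle, and neutrophils 153.0 and 123.4 CPM on 20 and 33 UMIs. Levels in CPM are relative to all UMIs of a gate and give no number of transcripts per cell.

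Ifngr2, the chain that brings JAK2 to the receptor, had another order. Dendritic cells had 95.38 CPM in WQ-2101 and 97.95 CPM in vehicle (ratio 0.974). Macrophages had 88.37 CPM in WQ-2101 and 95.48 CPM in vehicle, a ratio of 0.925 (0.867 to 0.987). T cells had 36.06 CPM in WQ-2101 and 31.16 CPM in vehicle (ratio 1.16). Tumour cells had 28.69 CPM in WQ-2101 and 29.82 CPM in vehicle (ratio 0.962), and NK cells held 2 and 3 UMIs, at or under the limit of 3 counts. Dendritic cells and macrophages overlapped in their intervals, as did T and tumour cells. Both receptor chains were seen in the same cell in 25.5% of WQ-2101 and 34.7% of vehicle macrophages, 15.4% and 21.9% of tumour cells, and 6.26% and 7.97% of T cells, shares that move with depth. Outside the 5 gates, fibroblasts held 39.75 CPM in WQ-2101 and 59.95 CPM in vehicle, and neutrophils 11 and 28 UMIs. Ungated cells had 42.69 CPM of Ifngr2 in WQ-2101 and 54.14 CPM in vehicle.

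Genes of the pathway were read from 4 lists, which were drawn up with earlier results for these data known, so their directions are not independent evidence. Past the 1.5-fold limit were 2.01% of all genes upwards and 2.61% downwards in T cells. The same shares were 2.71% and 0.549% in macrophages and 0.809% and 0.429% in tumour cells. Of the 14 receptor signalling genes, 1 of 14 at 5 CPM was higher and none lower in T cells (Usp18, which restrains interferon signalling, at 23.78 CPM in WQ-2101 and 13.97 CPM in vehicle). None of 14 was past 1.5-fold in macrophages. Irf1, a transcription factor that the receptor induces, had 190.8 CPM in WQ-2101 and 132.5 CPM in vehicle tumour cells. Socs1, the feedback inhibitor, had 37.55 CPM in WQ-2101 and 45.91 CPM in vehicle tumour cells, and the kinase Jak1 had 167.3 and 192.5 CPM.

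Of the 25 target genes, 10 of the 18 at 5 CPM were higher and none lower in tumour cells, with a median log2 ratio of 0.637. Of all genes in tumour cells, 0.809% were higher and 0.429% lower, with a median of -0.013. The chemokine Cxcl9 had 31.33 CPM in WQ-2101 and 13.97 CPM in vehicle tumour cells. Gbp5, a guanylate-binding protein, had 20.36 CPM in WQ-2101 and 9.388 CPM in vehicle. Iigp1, an immunity-related GTPase, had 104.3 CPM in WQ-2101 and 57.08 CPM in vehicle. Cxcl10, also a chemokine target, was near even in tumour cells at 169.2 CPM in WQ-2101 and 156.6 CPM in vehicle. In macrophages (2.71% of all genes higher, 0.549% lower) 4 of 21 targets were higher and none lower, with a median of 0.252. They were the nucleoside enzyme Upp1 (50.84 CPM in WQ-2101 and 19.43 CPM in vehicle), the nitric oxide synthase Nos2 (33.17 and 12.44 CPM), Gbp5 (38.25 and 17.44 CPM) and the inhibitory ligand Cd274 (189.5 and 118.7 CPM).

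In T cells 1 of 19 targets was higher (Upp1, 36.86 CPM in WQ-2101 and 12.54 CPM in vehicle) and 2 were lower, with a median of -0.134. The lower ones were Cxcl10 (454.5 CPM in WQ-2101 and 707.4 CPM in vehicle) and the serpin Serpina3g (91.94 and 141.8 CPM). Of all genes in T cells, 2.01% were higher and 2.61% lower. In dendritic cells 5 of 20 targets were higher and 1 lower, and in NK cells 3 of 18 and 1, in gates where 12.8% and 18.1% of all genes were higher. Differences between gates in these counts were not tested.

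Of the 24 genes listed as regulators of or companions to Ifng in lymphocytes, none of 21 was higher in T cells and 1 was lower, Xcl1, a chemokine of activated lymphocytes (99.07 CPM in WQ-2101 and 175.5 CPM in vehicle). The transcription factor Tbx21 had 101.1 CPM in WQ-2101 and 94.56 CPM in vehicle T cells, and Stat4, which carries the interleukin 12 signal, had 704.2 and 755.1 CPM. The list's median in T cells was -0.051. Neither factor was past 1.5-fold in T cells. In macrophages 2 of 16 were higher and 2 lower, where 2.71% and 0.549% of all genes were. Stat4 (24.51 CPM in WQ-2101 and 12.26 CPM in vehicle) and Ccl5 (160.7 and 71.15 CPM) were higher. Tnf (101.3 and 174.6 CPM) and Zfp36, whose product destabilises cytokine transcripts (336.4 and 515.9 CPM), were lower. Macrophages also held T markers at a sum of 25.81 CPM in WQ-2101 and 12.26 CPM in vehicle, and tumour markers at 147.0 and 109.0 CPM. NK markers summed to 28.56 and 11.8 CPM there. That sum includes Klra4 and Eomes, which the NK gate does not use, and it was 213.4 CPM in WQ-2101 and 247.4 CPM in vehicle tumour cells. The part of such RNA in the values of Stat4 and Ccl5 was not tested. In tumour cells, where 0.809% of all genes were higher and 0.429% lower, 3 of 10 were higher (Il15ra, Ccl5 and Il15) and none lower. NK cells had 6 of 20 higher and 2 lower, where 18.1% and 15.7% of all genes were, and dendritic cells 6 of 18 and 1, where 12.8% and 9.71% were.

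Of the 18 relatives of interleukins 12 and 18, none of 13 was higher in T cells and 2 were lower, Il1r1 (11.89 CPM in WQ-2101 and 29.73 CPM in vehicle) and the inflammasome sensor Nlrp3 (37.25 and 71.64 CPM). None of 14 was past the limit in macrophages and none of 10 in tumour cells. Dendritic cells had 1 of 14 higher and 2 lower, and NK cells 3 of 10 and 1, against those same shares of all genes. In macrophages Pycard, the inflammasome adaptor, had 266.9 CPM in WQ-2101 and 353.4 CPM in vehicle. Il23a, the other partner of Il12b, had 2.436 CPM in WQ-2101 and 3.285 CPM in vehicle macrophages.

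The genes most alike to each member in pattern were those with the highest Pearson correlation of log2(CPM + 5) over 12 points, 6 gates in each of the 2 libraries, among 9458 genes. The points share libraries and the gates were built from markers, so these values describe the gates. For Ifng they were the cytotoxic granule gene Nkg7 (r = 0.992), Sh2d1a (0.985) and Zap70 (0.984). For Il12rb2 they were Ppp1r16b (0.987), Ptprcap (0.986) and Ccdc88c (0.983), and for Il18r1 Cd247 (0.989), Kdm4d (0.987) and Cd27 (0.984). For Ifngr1 they were Prkch (0.987), Il2rg (0.984) and Pik3cd (0.983), and for Ifngr2 Tifa (0.964), Tmem50b (0.961) and Fkbp1b (0.959). Il12b lay closest to Flt3 (0.996), Ccl22 (0.996) and Xcr1 (0.995), which are dendritic gate markers themselves, and Il18 to Lamp1 (0.969), Psmd8 (0.939) and Grn (0.939). For Il12rb1 they were Krt83 (0.976), Nsun6 and Gm39323, at levels that rest on few UMIs.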

How the data were processed

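The authors deposited raw UMI counts, with no normalisation. Per the file headers Cell Ranger 7.2.0 made the matrices, but version 2.2.2 and the build GRCm38 stand in the submitters' processing notes. The sources used here do not say whether the authors corrected for free RNA or doublets. Barcodes under 500 UMIs or 300 genes (6 in WQ-2101, 22 in vehicle) or over 15% mitochondrial UMIs (90 and 139) were removed, as were Scrublet doublets (expected rate 0.8% per 1000 barcodes; 668 and 546, or 3.70% and 3.84%). The lowest deposited barcode total was 500 UMIs.

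A cell entered a gate with a minimum number of distinct markers and a minimum marker sum per 10000 UMIs: 2 and 10 for T, 2 and 4 for NK, 3 and 30 for macrophages, 2 and 5 for dendritic cells, 1 and 4 for tumour cells. Tumour cells also needed 2 UMIs of Hmga2 and at most 5 macrophage marker UMIs per 10000. Cells in several gates were left out (141 and 89), except that NK cells were those outside the T gate. Thresholds were set after the marker sums had been seen, and Klra4, Eomes, Zbtb46, Cacnb3, Dcn, Pdgfra and Cspg4 were dropped then because Hmga2-bearing cells held them. Of T cells, 28 in WQ-2101 and 31 in vehicle lay within 25% above the threshold.

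UMIs were summed per gate and library and divided by the gate's total (CPM), with exact Poisson 95% limits, and ratios were given conditional binomial limits. Shares have Clopper-Pearson limits, and expected shares at 1000 UMIs per cell are hypergeometric. Intervals and the limit of 3 counts cover counting error only, and UMIs of 1 cell are not independent. With 1 library per group no test was made. The log2 ratio is of CPM plus 5, and counts past 1.5-fold need a mean of 5 CPM. The members, lists and tests were chosen with earlier results of these data known. By rule, the 8 members are named in every gate, with the genes of each list furthest up or down, the partner chains and pathway factors, and the 3 genes most correlated with each member. List genes in NK and dendritic cells are mostly given as counts, and a few listed items are not reported here. Genes shown for Ifng-positive T cells and Il12rb2-positive macrophages were picked after their values were seen. The calculations were checked on simulated counts. Alternatives covered the gate threshold, doublets, filters, pseudocount, per-cell means and graph clusters (Leiden). Python 3.11.15, numpy 2.4.6, scipy 1.17.1, pandas 2.3.3, scikit-learn 1.9.0, scanpy 1.11.5, igraph 0.11.9, anndata 0.12.19 and matplotlib 3.10.9 were used. Coordinates came from GENCODE vM21 by Ensembl identifier (32158 of 32285 matched), and promoters from RefSeq on GRCm38.p6.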

Additional observations from a re-analysis of the deposited data

Results flagged for a closer look

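Cells outside every gate, which the comparisons above do not use, also held UMIs of these genes, and for 4 of them the counting interval of the ratio lay above 1. For the other 4 it lay below 1. Their ratios were 0.788 for Ifngr1 (0.752 to 0.826), 0.788 for Ifngr2 (0.74 to 0.84), 0.867 for Il18 (0.756 to 0.993) and 0.719 for Il18r1 (0.532 to 0.969). Ifng had 3.17 CPM in ungated WQ-2101 cells and 2.097 CPM in ungated vehicle cells, a ratio of 1.51 (1.14 to 2.02). Il12b had 0.3099 CPM in WQ-2101 and 0.05178 CPM in vehicle, on 13 and 2 UMIs (5.98, 1.35 to 54.6). Il12rb1 had 3.504 CPM in WQ-2101 and 2.123 CPM in vehicle (1.65, 1.25 to 2.19). Il12rb2 had 9.415 CPM in WQ-2101 and 6.706 CPM in vehicle (1.40, 1.20 to 1.65). For each 100 T marker UMIs these cells held 7.98 Ifng UMIs in WQ-2101 and 12.0 in vehicle, and 23.7 and 38.4 Il12rb2 UMIs. With 1 library per group these differences were not tested.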

How the results depend on the processing

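Over 66 alternatives to the values that answer a comparison, no log2 ratio past 1.5-fold turned sign, and 60 lay within the counting interval or count limit of the value reported. The Ifng log2 ratio in T cells (1.22) was 0.91 as a mean of per-cell levels, and between 0.91 and 1.24 over its alternatives. In NK cells it (0.55) was 1.10 with the gate threshold doubled, 1.15 as a mean of per-cell levels and 1.34 without the 10 highest cells, and ranged from 0.14 to 1.34. Ifngr2 in macrophages (-0.11) was 0.031 with graph clusters in place of gates, the one setting on the other side of 0. The Ifng-positive share of T cells was 17.81% in WQ-2101 and 12.51% in vehicle after thinning. Il12b in dendritic cells ranged from -0.90 to -0.54, Ifngr1 in tumour cells from -0.057 to -0.016, and Il12rb2 in macrophages (1.17) reached 1.70 with a pseudocount of 1. The 6 calls past 1.5-fold became 9 with doubled gate thresholds and ranged from 5 to 9. The cause was not tested. No paired analysis was possible because each group has 1 library. Depth was lower in WQ-2101 cells, which limits shares most, and NK and dendritic values rest on few cells.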
